A study of Mus musculus with 6 samples.

Results

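The genes described here are 35 enzymes, carriers and binding proteins of fatty acid metabolism, chosen by symbol from a pathway list and matched to Ensembl identifiers. The choice was made with earlier results of these data known. The 35 comprise 20 genes of oxidation, 10 of synthesis, elongation and desaturation, and 5 of activation and binding, out of 49671 genes in the count table. All 35 passed the filter on low counts, which left 12242 genes. RNA was sequenced in bulk from OT-I cells, mouse CD8 T cells with a transgenic receptor specific for an ovalbumin peptide. The CD73 KO group (3 libraries) lacks by its label CD73, a surface enzyme making adenosine from AMP that Nt5e encodes, and the WT group (3 libraries) carries it. In both groups splenic CD8 T cells were given the peptide at 10 ng/mL daily for 5 days with IL-7 and IL-15 at 5 ng/mL each and were replated after 48 h, a culture meant to bring about exhaustion, and live cells were sorted. Neither the age of the mice, nor the nature of the knockout allele, nor whether each library came from its own animal or culture is given in the sources used here. The p-values therefore reflect only how far these libraries scatter, which may be technical. In bulk RNA, fewer cells of a type and less RNA per cell cannot be told apart.

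Fatty acid oxidation breaks long chains down to acetyl-CoA in the mitochondrion. A chain is first activated to an acyl-CoA, passed through the inner membrane as a carnitine ester, and then shortened in repeated rounds of dehydrogenation, hydration, a further dehydrogenation and thiolysis, with electrons handed to the respiratory chain. Synthesis runs in the cytosol from citrate-derived acetyl-CoA, and elongases and desaturases at the endoplasmic reticulum then lengthen the chains and add double bonds. Activated T cells are known for building lipid from glucose carbon, and memory T cells for oxidising fatty acids.

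Totals were 19382950, 14867558 and 10202128 counts in CD73 KO replicates 1, 2 and 3, against 13039990, 9510879 and 6934150 in WT replicates 1, 2 and 3. Depth thus fell with the replicate number in both groups and was greater in CD73 KO at each number. The member with the fewest reads, Acsl1, still had at least 56 counts in every library. CPM below is the count scaled to library size with TMM factors, and RPKM is that value per kilobase of exon. Nt5e itself was at 3.67, 8.44 and 8.46 CPM in CD73 KO cells, against 22.5, 5.21 and 37.4 CPM in WT cells (log2 fold change -1.67 ± 0.72, SE, edgeR adjusted p = 0.534), so the library labelled WT replicate 2 lay within the CD73 KO range. The defining T cell genes were abundant, with 7 of 7 CD8 T cell markers tested and summed levels of 4569 to 5082 CPM in CD73 KO, against 4239 to 4982 CPM in WT. Of 5 adipocyte markers Cidec, Fabp4 and Lep were at 0 counts in all libraries and the other two had at most 1 count in a library. The myeloid markers Lyz2, Csf1r, C1qa and Spi1, the erythroid markers Hbb-bs and Hba-a1 and the stromal markers Col3a1 and Cdh5 were at 0 as well, while the myeloid gene Cd14 had 5 to 10 counts in each library and Itgam up to 4. The stromal gene Col1a1 had 6 to 23 counts, the B cell gene Cd79b 4 to 44 and the dendritic gene Zbtb46 4 to 23. On the CD4 T cell list Zbtb7b had 173 to 425 counts and Cd4 0 to 5. The B cell genes Ms4a1 and Pax5 were at 0. The NK list of 3 genes summed to 2.97 to 18.8 CPM in CD73 KO, against 3.70 to 39.2 CPM in WT. Its Eomes had 283, 21 and 70 counts in CD73 KO cells, against 387, 324 and 18 in WT cells, lowest in CD73 KO replicate 2 and WT replicate 3. Ncr1 of the same list had 1 to 8 counts in a library, so the sums do not by themselves show NK cells. The stromal list of 4 genes summed to 66.8 to 104.4 CPM in CD73 KO, against 46.5 to 63.3 CPM in WT, almost all of it Pecam1. Pecam1 had a log2 fold change of 0.51 (edgeR unadjusted p = 0.0208, adjusted p = 0.45), where 5.75% of all genes tested were higher at an unadjusted p under 0.05. With Col3a1 and Cdh5 at 0, these sums do not by themselves show stromal cells. The part of these lists in the results was not tested. Over all genes tested, CD73 KO replicate 3 and WT replicate 3 had a higher median correlation of log2 CPM with the other genotype (0.985 for each) than with their own (0.982 for each), which was not so for the other libraries.

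To place the values beside the DNA, the RefSeq windows upstream of Fasn and Acads are shown, the pair of members with an unadjusted p under 0.05 for which a window was at hand. Each holds the 250 bases before the annotated start, minus strand of GRCm38.p6, read 5′ to 3′. The first is chr11:120824548-120824797 and the second chr5:115119347-115119596. Capitals mark every match, on either strand, to the letters TCACNC (a half-site of sterol regulatory elements) or CCAAT (the NF-Y box).
Fasn: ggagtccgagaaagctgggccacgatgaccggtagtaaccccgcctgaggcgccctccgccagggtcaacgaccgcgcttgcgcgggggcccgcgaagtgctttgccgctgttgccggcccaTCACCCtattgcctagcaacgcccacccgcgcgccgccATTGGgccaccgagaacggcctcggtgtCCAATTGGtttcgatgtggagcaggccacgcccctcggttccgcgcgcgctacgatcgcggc
Acads: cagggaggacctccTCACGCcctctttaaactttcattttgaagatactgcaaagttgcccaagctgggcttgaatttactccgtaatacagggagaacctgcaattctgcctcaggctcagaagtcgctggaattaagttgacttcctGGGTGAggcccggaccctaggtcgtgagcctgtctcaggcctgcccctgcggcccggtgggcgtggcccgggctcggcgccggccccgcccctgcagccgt
The Fasn window held 1 TCACNC match, 128 bases before the start, and 3 CCAAT matches, 2 of which overlap on opposite strands. The Acads window held 2 TCACNC matches and 0 CCAAT matches. Over windows from 250 bases before to 50 bases after the start, TCACNC was present in 10 of 29 members with a window (34.5%) and in 42.9% of 27025 genes. CCAAT was present in 13 of 29 members (44.8%) and in 37.9% of genes. The nuclear receptor half-site AGGTCA was present in 6 of 29 members (20.7%) and in 16.0% of genes, and the E-box CACGTG in 1 of 29 members (Elovl5) and in 7.24% of genes. These are matches of letters within the windows, whose use in these cells was not measured.

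Most of the 35 members had slightly lower mean RNA levels in CD73 KO than in WT, and no member passed the test across all genes. By edgeR's quasi-likelihood test 0 of 35 members had an adjusted p under 0.05, where 0.0572% of all genes tested did. At an unadjusted p under 0.05 there were 3 members lower in CD73 KO (3.89% of all genes) and 0 higher (5.75% of all genes). The count of 3 became 7 when CD73 KO replicate 2 was left out (3.93% of all genes in that fit). It became 6 without CD73 KO replicate 3 (6.72% of all genes) and 1 without WT replicate 1 (2.26% of all genes). DESeq2 called 1 member, Fabp5, at an adjusted p under 0.05, among 99 genes called in all. With limma-voom 0 members were called, among 6 genes in all.

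The log2 fold change, CD73 KO over WT, was below 0 for 31 of 35 members, where 47.7% of all genes tested were below 0 and 52.3% above. The members were chosen with earlier results of these data known, so the shares in this paragraph describe the list and are no test. Among genes of the same routes outside the set, 21 of 34 tested oxidation genes and 14 of 22 tested synthesis and desaturation genes were below 0. The median over members was -0.15, against 0.01 over all genes tested. The 4 members above 0 were Acadl, Eci2, Acox3 and Elovl5, by 0.12 or less. In 9 of 35 members (25.7%) every CD73 KO library lay under every WT library, where 7.61% of all genes tested did so, and in 0 members did the groups separate the other way, against 7.56% of all genes. The members with separated groups were Acadvl, Acads, Hadha, Echs1, Hadh and Etfa of oxidation, Fabp5 of binding, and Acly and Fasn of synthesis. The plot of fold changes by member gives each difference with its standard error.

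**Figure D1:**
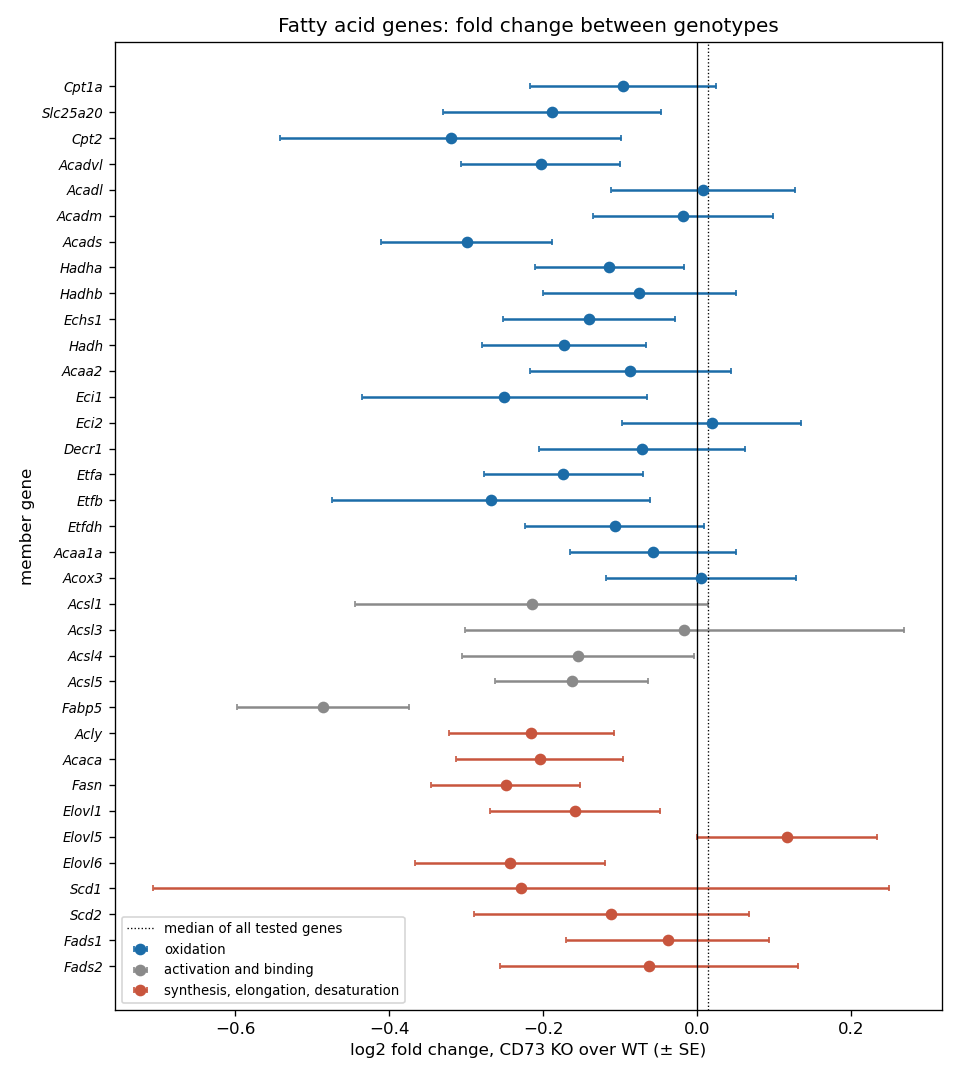
Log2 fold change of each member, CD73 KO over WT, with its standard error, coloured by oxidation, activation and binding, and synthesis with elongation and desaturation. 31 of 35 points lie left of 0, Fabp5 lies farthest left at -0.49, and the dotted line marks the median of all genes tested, 0.01.

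Fabp5 had the smallest p of the set. It encodes a cytosolic carrier that binds fatty acids and shuttles them within the cell (ENSMUSG00000027533, chromosome 3, 10012548 to 10016607, GRCm38). Its level was 65.9, 73.8 and 68.5 CPM in CD73 KO cells, against 87.6, 100.8 and 103.5 CPM in WT cells. All 3 CD73 KO libraries sat below the lowest WT library. The means were 69.4 ± 4.04 CPM in CD73 KO, against 97.3 ± 8.51 CPM in WT (SD, n = 3 each), a log2 fold change of -0.49 ± 0.11 (SE, edgeR unadjusted p = 0.00123, adjusted p = 0.270). The adjusted p was 0.0341 with DESeq2 and 0.0245 without a filter on low counts, and it ran from 0.0245 to 0.923 over 13 alternatives, the highest without the library labelled WT replicate 2. The unadjusted p was under 0.05 in all 13. Processed pseudogenes that match Fabp5 at 90% identity or more took few reads, with Gm6166 the highest at 0.8% of the Fabp5 count.

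Activation of fatty acids to acyl-CoA is carried out by the Acsl enzymes. Acsl5, the most abundant of them per length, was at 432.2, 419.1 and 385.4 CPM in CD73 KO cells, against 469.2, 484.1 and 431.7 CPM in WT cells. The lowest WT value lay just under the highest CD73 KO value, so the groups overlapped (log2 fold change -0.16 ± 0.10, SE, edgeR adjusted p = 0.616). The isoforms differed widely in level. Per length, Acsl5 averaged 89.8 ± 7.29 RPKM over the 6 libraries (SD), Acsl4 28.4 ± 4.42, Acsl3 4.64 ± 1.40 and Acsl1 0.990 ± 0.216, and no range of one isoform touched that of the next. The fold changes of Acsl1, Acsl3 and Acsl4 ran from -0.22 to -0.02 and none had an unadjusted p under 0.05.

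The carnitine shuttle brings acyl chains into the mitochondrion. Cpt1a, the outer membrane transferase that sets its rate, was at 95.3, 90.1 and 85.1 CPM in CD73 KO cells, against 104.5, 102.2 and 82.2 CPM in WT cells. WT replicate 3 was the lowest of all 6, so the groups overlapped (log2 fold change -0.10 ± 0.12, SE, edgeR adjusted p = 0.821). With single libraries dropped it ran from -0.036, on dropping WT replicate 1, to -0.20, on dropping WT replicate 3. The related genes Cpt1b and Cpt1c had at most 10 counts in any library and were not tested. Slc25a20, the carrier that exchanges acylcarnitine for carnitine, and Cpt2, the inner membrane transferase, had log2 fold changes of -0.19 ± 0.14 and -0.32 ± 0.22. For Cpt2, CD73 KO replicate 1 stood apart at 10.7 CPM, the other 5 libraries being at 18.2 to 21.8 CPM.

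Acyl-CoA dehydrogenases begin each round of oxidation, each enzyme preferring chains of a certain length. Acads, for short chains (ENSMUSG00000029545, chromosome 5, 115110299 to 115119346), was at 44.2, 44.1 and 50.2 CPM in CD73 KO cells, against 56.2, 55.5 and 58.6 CPM in WT cells. The groups did not overlap, with a log2 fold change of -0.30 ± 0.11 (SE, edgeR unadjusted p = 0.0214, adjusted p = 0.454). The unadjusted p was under 0.05 in 9 of 13 alternatives and reached 0.0599 in the others, each of which dropped a single library (CD73 KO replicate 1 or 2, WT replicate 1 or 3). Acadvl, for very long chains, was at 76.8, 86.2 and 88.1 CPM in CD73 KO cells, against 97.3, 95.1 and 96.5 CPM in WT cells. These groups were separate too (log2 fold change -0.20 ± 0.10, SE, edgeR adjusted p = 0.561). Of the 2686 exon bases of Acadvl, 1151 overlap exons of Dvl2 on the opposite strand, and although the library kit keeps strand, without a stated strand setting of the counting reads of the pair cannot be told apart there.

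Acadl, for long chains, stood out by level and not by difference. It was at 238.8, 223.4 and 185.2 CPM in CD73 KO cells, against 204.8, 232.2 and 207.6 CPM in WT cells, with both extremes among the CD73 KO libraries. Its log2 fold change was 0.01 ± 0.12 (SE, edgeR adjusted p = 0.990), and its sign turned when any one of 4 libraries was left out. Per length it averaged 107.4 ± 9.93 RPKM over the 6 libraries (SD), the highest of the 20 oxidation genes, against 33.5 ± 2.95 for Acadvl, 22.7 ± 2.78 for Acads and 9.96 ± 0.472 for Acadm, the enzyme for medium chains. Acadm had a log2 fold change of -0.02 ± 0.12.

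The later steps of the round showed the same narrow differences. Hadha, the alpha subunit of the mitochondrial trifunctional protein, was at 205.4, 199.4 and 205.7 CPM in CD73 KO cells, against 227.4, 226.2 and 207.2 CPM in WT cells, so that WT replicate 3 lay only just above the CD73 KO libraries. Its log2 fold change was -0.11 ± 0.10 (SE, edgeR adjusted p = 0.717). Hadh, which dehydrogenates hydroxyacyl-CoA, was at 60.6, 60.5 and 63.1 CPM in CD73 KO cells, against 70.2, 73.5 and 63.7 CPM in WT cells (log2 fold change -0.17 ± 0.11). Here too WT replicate 3 was the WT library nearest to the CD73 KO libraries.

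Echs1, the short-chain enoyl-CoA hydratase, was at 53.2, 45.2 and 48.3 CPM in CD73 KO cells, against 54.1, 54.4 and 53.3 CPM in WT cells (log2 fold change -0.14 ± 0.11, SE, edgeR adjusted p = 0.699). The gap between its groups was 53.2 against 53.3 CPM, no wider than rounding, and the log2 fold change was -0.21 when CD73 KO replicate 1 was left out and -0.087 when CD73 KO replicate 2 was. Acaa2, the mitochondrial thiolase that releases acetyl-CoA, was at 65.8, 58.9 and 81.1 CPM in CD73 KO cells, against 73.5, 73.7 and 71.0 CPM in WT cells. The CD73 KO libraries of Acaa2 spanned the whole WT range (log2 fold change -0.09 ± 0.13).

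Hadhb, the beta subunit of the trifunctional protein, averaged 60.7 ± 5.38 CPM in CD73 KO, against 63.9 ± 7.66 CPM in WT (SD, n = 3 each). Its level is uncertain, because the processed pseudogene Gm13910 matches it at 99.79% identity and was counted at 34.8% of the Hadhb count. Summed with Gm13910 the means were 81.3 ± 7.14 CPM in CD73 KO, against 87.0 ± 12.3 CPM in WT (SD, n = 3 each), still within the spread of the libraries.

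Electron transfer flavoprotein passes electrons from the dehydrogenases toward the respiratory chain. Etfa, its alpha subunit, was at 90.4, 103.6 and 99.9 CPM in CD73 KO cells, against 107.5, 109.5 and 114.7 CPM in WT cells, without overlap (log2 fold change -0.17 ± 0.10, SE, edgeR adjusted p = 0.611). Etfb, the beta subunit, and Etfdh, the membrane oxidoreductase that receives the electrons, had log2 fold changes of -0.27 ± 0.21 and -0.11 ± 0.12 with overlapping groups. For Etfb, 617 of 1164 exon bases overlap another annotated gene, Gm45233, on the same strand.

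Unsaturated chains need the isomerases Eci1 and Eci2 and the reductase Decr1. Eci1 was at 19.4, 24.9 and 33.3 CPM in CD73 KO cells, against 31.5, 29.9 and 30.3 CPM in WT cells. The WT libraries lay close together inside the wider CD73 KO range (log2 fold change -0.25 ± 0.18, SE, edgeR adjusted p = 0.680). It was -0.083 when CD73 KO replicate 1 was left out and -0.47 when CD73 KO replicate 3 was. Eci2 and Decr1 had log2 fold changes of 0.02 ± 0.12 and -0.07 ± 0.13. In peroxisomes, which shorten chains that mitochondria do not take, the thiolase gene Acaa1a was at 51.8, 51.5 and 56.6 CPM in CD73 KO cells, against 53.6, 54.8 and 58.1 CPM in WT cells, and the groups overlapped (log2 fold change -0.06 ± 0.11). The oxidase gene Acox3 had 0.01 ± 0.12.

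Synthesis begins with Acly, which splits citrate to cytosolic acetyl-CoA, Acaca, which carboxylates it to malonyl-CoA, and Fasn, which builds palmitate. Fasn (ENSMUSG00000025153, chromosome 11, 120805846 to 120824547) was at 413.3, 402.5 and 416.6 CPM in CD73 KO cells, against 523.1, 487.7 and 453.5 CPM in WT cells. The CD73 KO libraries were tightly grouped below all WT libraries (log2 fold change -0.25 ± 0.10, SE, edgeR unadjusted p = 0.0267, adjusted p = 0.477). The unadjusted p was under 0.05 in 10 of 13 alternatives, and it was 0.0556 on dropping CD73 KO replicate 2, 0.133 on dropping WT replicate 1 and 0.0730 on dropping the library labelled WT replicate 2. Acly was at 368.4, 384.8 and 314.5 CPM in CD73 KO cells, against 435.0, 408.1 and 397.0 CPM in WT cells. Its groups were separate as well (log2 fold change -0.22 ± 0.11, SE, edgeR adjusted p = 0.550, and -0.14 when CD73 KO replicate 3 was left out). Acaca, at 88.5 to 104.2 CPM in CD73 KO, against 102.3 to 114.4 CPM in WT, overlapped at 1 library of each group (log2 fold change -0.20 ± 0.11). All 3 of these synthesis genes thus had log2 fold changes between -0.25 and -0.20, and none passed the test.

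Elongases lengthen the products of synthesis and dietary chains. Elovl5, which acts on polyunsaturated chains, was the member farthest above 0, at 246.7, 230.4 and 193.2 CPM in CD73 KO cells, against 207.2, 218.2 and 193.1 CPM in WT cells. The groups overlapped, with a log2 fold change of 0.12 ± 0.12 (SE, edgeR adjusted p = 0.770). It was 0.032 when CD73 KO replicate 1 was left out, 0.21 when CD73 KO replicate 3 was and 0.071 when WT replicate 3 was. Elovl6, which extends palmitate, and Elovl1, which makes very long chains, had -0.24 ± 0.12 and -0.16 ± 0.11, also with overlapping groups. The elongase genes Elovl2 and Elovl3 had at most 2 counts in a library.

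Desaturases place double bonds, Scd1 and Scd2 in saturated chains and Fads1 and Fads2 in polyunsaturated ones. Scd2 was the most abundant member per length, at 189.9 ± 34.5 RPKM over the 6 libraries (SD). It was at 983.6, 1273 and 736.3 CPM in CD73 KO cells, against 961.8, 1093 and 1179 CPM in WT cells. The CD73 KO libraries held both the highest and the lowest value (log2 fold change -0.11 ± 0.18, SE, edgeR adjusted p = 0.866), and without CD73 KO replicate 3 the log2 fold change was 0.064.

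The spread of the desaturases between libraries of one genotype exceeded the difference between the genotype means. Scd1, Fads1 and Fads2 are named here after their values were seen. Scd1 was at 70.7, 165.7 and 64.1 CPM in CD73 KO cells, against 72.6, 111.7 and 170.0 CPM in WT cells. The highest library was 2.65 times the lowest, the widest range of the 35 members, and the high pair, CD73 KO replicate 2 and WT replicate 3, belonged to different genotypes. Fads2 was at 60.0, 96.3 and 59.3 CPM in CD73 KO cells, against 68.7, 70.0 and 87.0 CPM in WT cells, with the same pair highest. That pair was lowest for Eomes, whose counts are given above, and whether the patterns are linked was not tested. Scd2 had that pair on top too, and for Fads1 CD73 KO replicate 2 led at 92.0 CPM with WT replicates 1 and 3 next at 84.7 and 84.5 CPM. The log2 fold changes were -0.23 ± 0.48 for Scd1, -0.06 ± 0.19 for Fads2 and -0.04 ± 0.13 for Fads1. Over the 35 members the median ratio of highest to lowest library was 1.30, and over 12232 tested genes above 0 in every library it was 1.46.

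**Figure D2:**
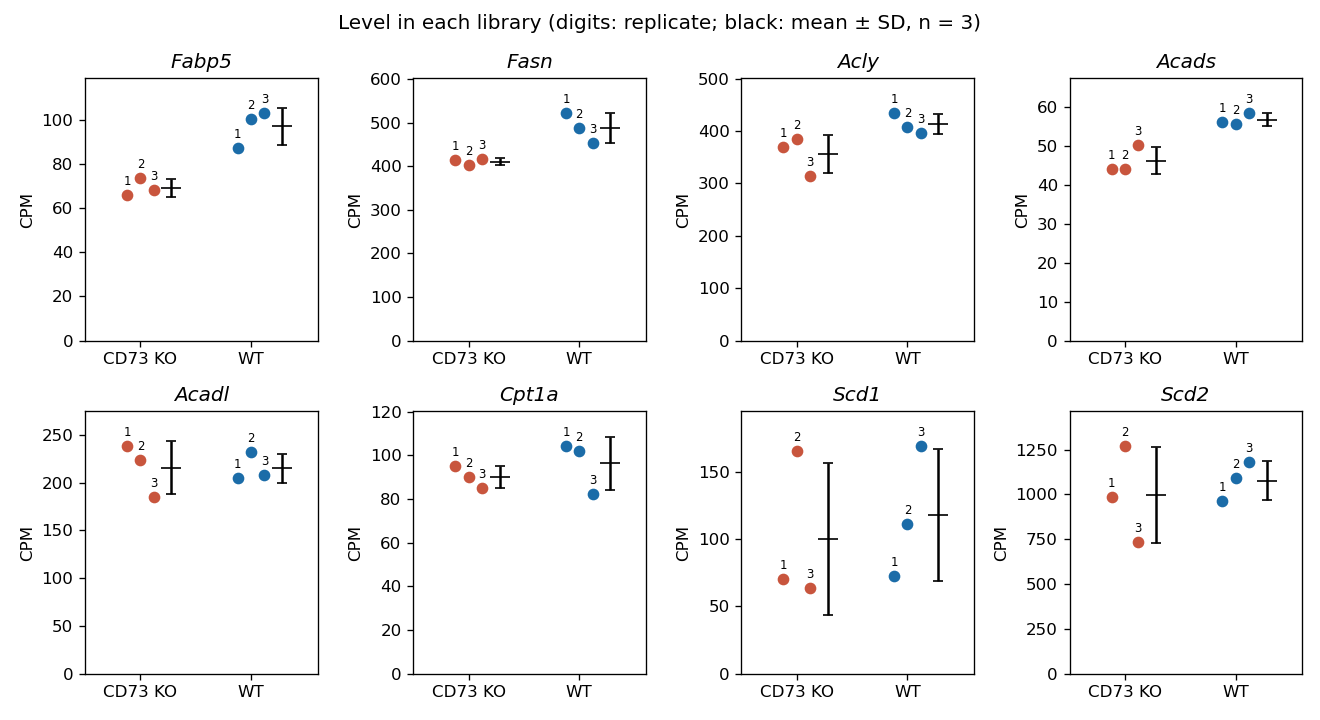
CPM of 8 members in each library, CD73 KO left and WT right, with replicate numbers beside the points and the mean ± SD (n = 3) in black. The groups are apart for Fabp5, Fasn, Acly and Acads, overlap for Acadl and Cpt1a, and for Scd1 the high libraries are CD73 KO replicate 2 at 165.7 and WT replicate 3 at 170.0 CPM.

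Oxidation and synthesis were set side by side by counts, medians and sums. Of the oxidation genes 17 of 20 had a log2 fold change below 0, with a median of -0.11. Of the synthesis, elongation and desaturation genes it was 9 of 10, with a median of -0.18, but 5 of 10 when CD73 KO replicate 3 was left out and 7 of 10 when CD73 KO replicate 1 or WT replicate 3 was. Of the activation and binding genes it was 5 of 5, with a median of -0.16. Which of the first pair had the lower median depended on single libraries. Without CD73 KO replicate 3 the medians were -0.13 for oxidation and -0.065 for synthesis, and without WT replicate 3 they were -0.15 and -0.11.

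Summed per length, the 20 oxidation genes reached 406.1, 409.5 and 416.7 RPKM in CD73 KO cells, against 439.6, 453.7 and 438.6 RPKM in WT cells, means of 410.8 ± 5.42 and 443.9 ± 8.45 RPKM (SD, n = 3 each). The groups did not overlap, and the libraries of a genotype lay close together. Acly, Acaca and Fasn summed to 113.0, 115.8 and 102.8 RPKM in CD73 KO cells, against 136.9, 127.8 and 123.3 RPKM in WT cells, again without overlap. Elongases summed to 102.6 to 113.3 RPKM in CD73 KO and 100.7 to 114.5 RPKM in WT. Desaturases summed to 227.4, 315.1 and 180.8 RPKM in CD73 KO cells, against 229.3, 259.2 and 294.6 RPKM in WT cells, so that the genotypes overlapped throughout. The ratio of oxidation to the whole of synthesis, elongation and desaturation was 0.895, 0.757 and 1.08 in CD73 KO cells, against 0.917, 0.905 and 0.846 in WT cells. The CD73 KO ratios lay on both sides of the WT ratios, and Scd2 alone held 34.9% to 43.1% of the synthesis sum. The sums weight abundant genes and carry no test here. They also depend on the exon length used. With the longest coding transcript as length, Scd2 moved from 189.9 to 190.3 RPKM and Acadl from 107.4 to 112.4 RPKM. Hadh moved from 13.1 to 36.5 RPKM and Echs1 from 6.21 to 33.0 RPKM. The ratio therefore does not show which of the routes stood higher.

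**Figure D3:**
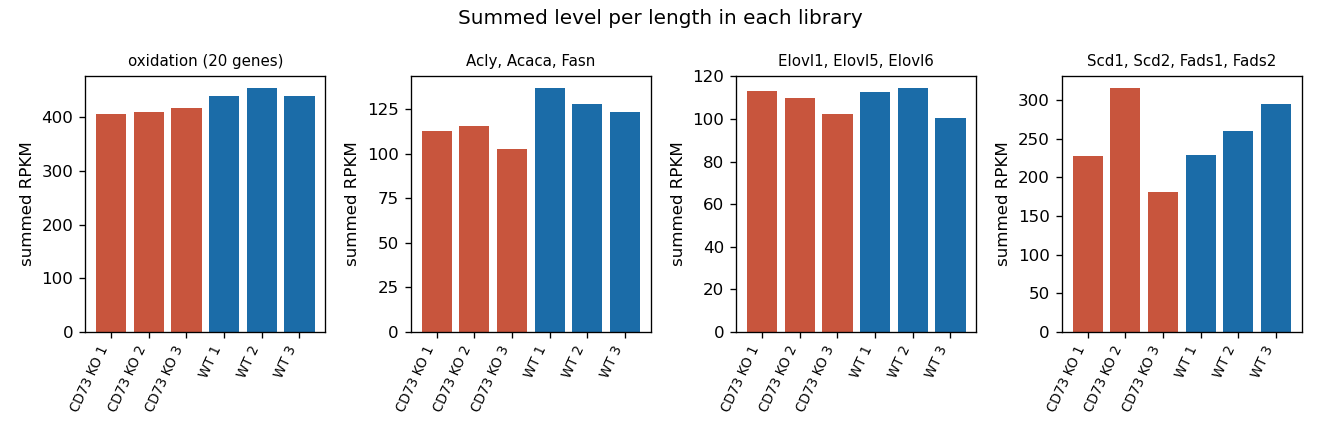
Summed RPKM in each library, CD73 KO in orange and WT in blue, for the 20 oxidation genes, the 3 synthesis enzymes, the 3 elongases and the 4 desaturases. Oxidation and synthesis sums are lower in every CD73 KO library, at 406.1 to 416.7 against 438.6 to 453.7 RPKM for oxidation, while the desaturase sums of the genotypes overlap.

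The lowest values of the members lay mostly in CD73 KO libraries, and the same count was not made over all genes tested. Among the 35 members, CD73 KO replicates 1, 2 and 3 were the lowest library for 11, 7 and 12 genes and WT replicate 3 for 5, and neither WT replicate 1 nor the library labelled WT replicate 2 for any. The highest library was CD73 KO replicate 1, 2 or 3 for 4, 5 and 3 genes, and WT replicate 1, the library labelled WT replicate 2, or WT replicate 3 for 9, 8 and 6. In the heat map of deviations the oxidation genes are mostly below their mean in the CD73 KO libraries, and the desaturase block is split by library within each genotype. Acsl3, named after its values were seen, followed the desaturases, at 14.2, 30.7 and 15.3 CPM in CD73 KO cells, against 19.0, 18.7 and 23.5 CPM in WT cells.

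**Figure D4:**
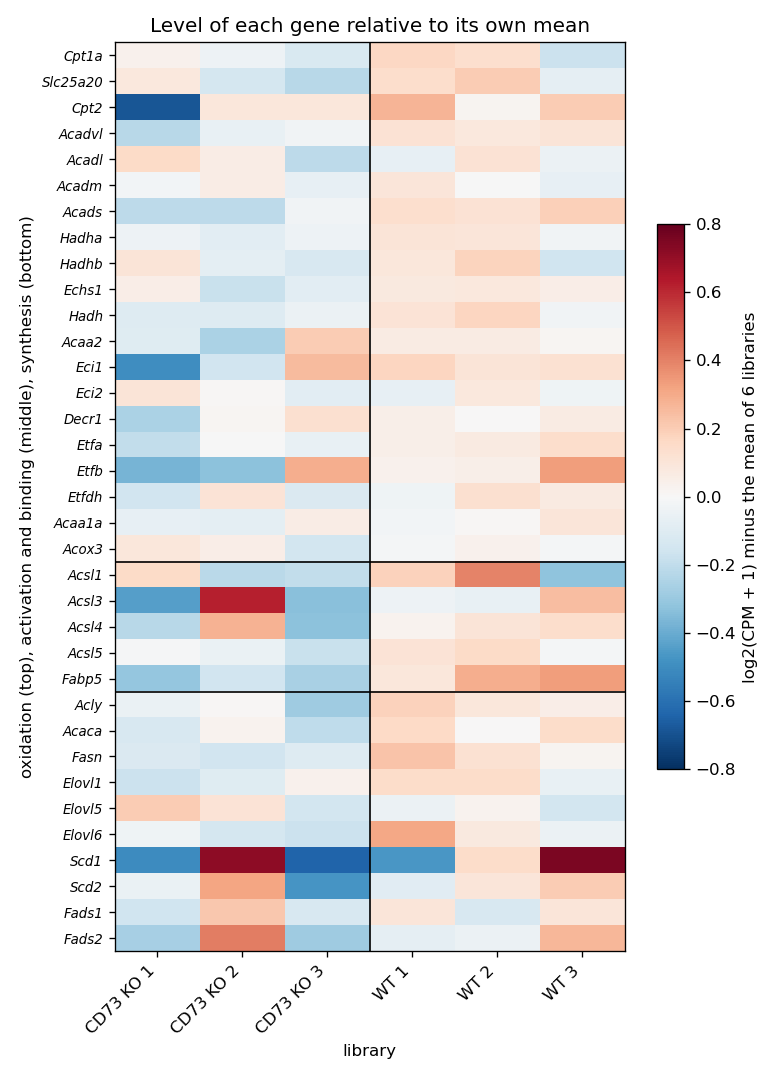
Heat map of log2(CPM + 1) minus the mean of the 6 libraries for each member, CD73 KO libraries left and WT libraries right, with lines between oxidation, activation and binding, and synthesis genes. Scd1 is high (red) in CD73 KO replicate 2 and in WT replicate 3, whereas Fabp5 is low (blue) in all 3 CD73 KO libraries.

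By level per length the members ranged over a wide span, Scd2, Acadl, Acsl5 and Acly leading at 189.9, 107.4, 89.8 and 72.9 RPKM and Acsl1 lowest at 0.990 RPKM. The ranges of Scd2 (134.8 to 232.9 RPKM) and Acadl (92.3 to 119.1 RPKM) did not touch. Those of Acsl5 (79.2 to 99.5 RPKM) and Acly (59.6 to 82.4 RPKM) overlapped, and Elovl5 at 61.0 ± 6.05 and Etfa at 56.8 ± 4.62 RPKM (SD, 6 libraries) did not differ beyond their spread. RPKM here depends on the exon length used. With the longest coding transcript in place of all annotated exons, Fabp5 stood at 84.5 in place of 23.4 RPKM and Echs1 at 33.0 in place of 6.21 RPKM, while Scd2, Acadl, Acsl5 and Acly kept the top places at 190.3, 112.4, 103.0 and 86.9 RPKM.

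Further genes were read from lists drawn up around the same routes, none of them members of the set. Of 41 other oxidation genes 34 were tested. 21 had a log2 fold change below 0 (47.7% of all genes tested did), and the median was -0.08. By edgeR, DESeq2 or limma-voom 0 passed over all genes, and 3 were lower at an unadjusted p under 0.05 by edgeR (3.89% of all genes). These 3 were Hsd17b4, a peroxisomal multifunctional enzyme, Acad9, a dehydrogenase that also assembles respiratory complex I, and Acat1, the mitochondrial acetoacetyl-CoA thiolase. Hsd17b4 was at 59.8, 63.2 and 60.1 CPM in CD73 KO cells, against 80.5, 79.3 and 66.7 CPM in WT cells (log2 fold change -0.31 ± 0.11, SE, edgeR adjusted p = 0.449). Acad9 and Acat1 had -0.29 ± 0.11 and -0.24 ± 0.10, also with every CD73 KO library below every WT library. That held for 4 of the 34 tested genes of this list and for 7.61% of all genes.

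Of the other synthesis and desaturation genes found in the table, 22 of 29 were tested, with 14 below 0 (47.7% of all genes were) and a median of -0.06. None passed by edgeR or limma-voom, and DESeq2 called 1, Mid1. By edgeR 3 had an unadjusted p under 0.05, 1 lower in CD73 KO (3.89% of all genes) and 2 higher (5.75% of all genes). Mid1, counted on the list, is a ubiquitin ligase gene and no enzyme of these routes, unlike the lipogenic regulator Mid1ip1, a separate gene with a log2 fold change of -0.03 ± 0.16. Mid1 was at 4.89, 4.35 and 6.44 CPM in CD73 KO cells, against 8.47, 10.5 and 12.1 CPM in WT cells (log2 fold change -0.99 ± 0.23, SE, edgeR adjusted p = 0.270, with no overlap of the groups). Acss1, which makes acetyl-CoA from acetate in mitochondria, had 0.38 ± 0.16. Scd4, a desaturase gene named after its values were seen, had 21, 13 and 10 counts in CD73 KO cells, against 5, 5 and 3 in WT cells, with every CD73 KO library above every WT library in CPM (log2 fold change 1.13 ± 0.42, SE, edgeR unadjusted p = 0.0225, adjusted p = 0.454). Hacd3, a dehydratase of elongation, had -0.25 ± 0.12 with an unadjusted p of 0.0562 by edgeR's fit across all genes. In 4 of the 22 tested genes every CD73 KO library lay under every WT library (7.61% of all genes). In 3 the groups separated the other way (7.56% of all genes). Those 3 were Scd4 and, named after their values were seen, Acacb (0.71 ± 0.36) and Fads6 (0.73 ± 0.35).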

How the data were processed

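RNA was measured in 6 libraries, 3 labelled CD73 KO and 3 labelled WT. The authors deposited a single table of unnormalized read counts by gene. Per the submitters' processing notes, fastp, HISAT2 and featureCounts were used with the mm10 build; their versions, the annotation and the strand setting were not given in the sources used here. Exon lengths and coordinates came from GENCODE M21 (GRCm38) and promoter windows from RefSeq (GRCm38.p6), which held 29 of 35 members. Genes were kept with filterByExpr (minimum count 10, minimum total count 15) and compared with edgeR 4.0.16 (quasi-likelihood F-test, TMM factors, robust, legacy fit) in R 4.3.3, with Benjamini-Hochberg adjustment over 12242 genes and a threshold of 0.05. The standard error is the log2 fold change divided by the square root of F. Each fold change is CD73 KO over WT. Copies of members were sought with blastn 2.17.0 (at least 90% identity over 70% of the copy). The fit was tested on simulated counts.

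The members and lists were chosen with earlier results of these data known. Full values are given for members whose groups do not overlap, those with an unadjusted p under 0.05, and the member of highest RPKM in each role; of other lists, the 3 genes of smallest p at a mean of at least 5 CPM. Alternatives were RLE factors, library size alone, no filter, 1 CPM in 3 libraries, a replicate block, DESeq2 1.42.0, limma-voom (limma 3.58.1), each library left out, and, chosen after seeing the data, another exon length.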

Additional observations from a re-analysis of the deposited data

How the results depend on the processing

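Over all settings the median log2 fold change stayed below 0 for the oxidation genes and for the synthesis, elongation and desaturation genes. With single libraries left out it ran from -0.15 to -0.10 for oxidation and from -0.25 to -0.065 for synthesis, elongation and desaturation, nearest to 0 when CD73 KO replicate 3 was dropped, where 5 of 10 of these genes were below 0. Members called at an adjusted p under 0.05 numbered 1 (Fabp5) without a filter on low counts and 1 with DESeq2, and 0 in the other 11 alternatives. Members lower at an unadjusted p under 0.05 numbered 1 to 7 with single libraries left out. The fewest came on dropping WT replicate 1 (2.26% of all genes) and the most on dropping CD73 KO replicate 2 (3.93% of all genes). The share of all genes ran from 1.52% to 6.72% over these fits. Among all genes, 7 were called as reported, 298 without a filter, 99 with DESeq2 and 4 to 8 with a library left out, 4 being reached on dropping either CD73 KO replicate 2 or the library labelled WT replicate 2. With a library left out, Acadl ran from -0.080 to 0.10 and was below 0 in 4 of 6 such fits, the values being -0.080, -0.019, -0.030 and -0.018. Acaa2 ran from -0.22 to 0.012, above 0 once CD73 KO replicate 2 was dropped. Scd2 ran from -0.33 to 0.064, above 0 once CD73 KO replicate 3 was dropped. The cause of these turns was not tested. The labels number the replicates 1 to 3 in both groups and do not say whether a number marks a shared animal or day. Deviations of same-numbered libraries from their group means had correlations across genes of 0.15, -0.17 and 0.01. Those of other-numbered libraries ran from -0.32 to 0.36. With 3 libraries per group these values cannot decide whether the numbers mark a pairing. With the replicate block 0 members were called, and 4 were lower at an unadjusted p under 0.05 (4.16% of all genes). The medians were then -0.11 and -0.18, and 5 genes were called among all. Depth limits the pseudogene and low-count genes most, since 1 count equals 0.0531 to 0.142 CPM.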

Other observations

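Genes that handle uptake, storage and release of fatty acids were mostly close between genotypes. Of 33 listed, 21 were tested, 12 had a log2 fold change below 0 (47.7% of all genes tested did), and the median was -0.01. By edgeR and limma-voom 0 passed, 2 were lower at an unadjusted p under 0.05 by edgeR (3.89% of all genes), and DESeq2 called 1, Cd36. Cd36, a surface receptor that takes up long-chain fatty acids, is named here after its values were seen, since its mean was under 5 CPM. It was at 2.82, 1.25 and 2.21 CPM in CD73 KO cells, against 6.84, 11.7 and 3.98 CPM in WT cells, a log2 fold change of -1.84 ± 0.42 (SE, edgeR adjusted p = 0.270). The adjusted p was 0.00425 with DESeq2 and ran from 5.50e-07 without a filter on low counts to 0.866 without the library labelled WT replicate 2, where the log2 fold change was -1.39. Abhd5, which activates triglyceride lipase, had -0.49 ± 0.19, Acsbg1, an acyl-CoA synthetase, 0.37 ± 0.20, and the transporter Slc27a4 -0.22 ± 0.15. Plin2, a coat protein of lipid droplets, was at 30.5, 37.8 and 30.3 CPM in CD73 KO cells, against 30.3, 34.9 and 33.4 CPM in WT cells.

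Regulators of the pathway were about evenly split. Of 34 listed, 28 were tested, 16 had a log2 fold change above 0 (52.3% of all genes tested did), and the median was 0.02. By edgeR, DESeq2 or limma-voom 0 passed, and 3 were higher at an unadjusted p under 0.05 by edgeR (5.75% of all genes). Those 3 were Mlxip, a glucose-sensing transcription factor (0.35 ± 0.11), Foxo1 (0.41 ± 0.13) and Myc (0.54 ± 0.18, with WT replicate 3 inside the CD73 KO range). Without a filter on low counts Myc was called. Ppara, the nuclear receptor that drives oxidation genes in liver, and Ppargc1a, its coactivator, had 0 counts in every one of the 6 libraries, where the limit of 3 counts is 0.159 to 0.427 CPM depending on the library. The related genes Ppard and Ppargc1b, named after their values were seen, were at 12.7 to 22.1 CPM and 2.66 to 4.90 CPM. Their log2 fold changes were 0.08 ± 0.22 and 0.13 ± 0.30 (SE, edgeR adjusted p = 0.929 and 0.907). Srebf1, the factor that drives lipid synthesis genes, was at 193.5, 191.1 and 236.8 CPM in CD73 KO cells, against 213.8, 195.9 and 215.4 CPM in WT cells (log2 fold change -0.01 ± 0.11).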
